A study of Rattus norvegicus with 70 samples.

Results

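The 50 keratin regions described here are all rows of the 2 deposited region tables whose gene symbol begins with Krt and a digit or with Krtap, out of 17174 regions in all. They carry 49 of the 16561 gene symbols, and each region is a window of 5625 bp around the start of 1 transcript. Signal is the deposited read number of a region, scaled to a library total of 50 M reads, from methylated DNA captured with a methyl-CpG-binding protein (MBD-seq) from rat liver of the strain Crj:CD(SD)IGS. The animals had received a liver initiator or its vehicle and, after 2 weeks without treatment, a promotion period. Diethylnitrosamine (DEN), which alkylates DNA, was given at 3 or 30 mg/kg. The others were acetaminophen (1000 mg/kg), methapyrilene (100 mg/kg) and thioacetamide (45 mg/kg). Phenobarbital at 500 ppm in the drinking water followed each of them. DEN at 30 mg/kg was given for 1 week only, because of body weight loss, and the other treatments for 1 or 2 weeks. The phenobarbital control received 0.5% methylcellulose and then phenobarbital, and the water control received 0.5% methylcellulose and then water. The first liver samples came from the partial hepatectomy that all animals had after 1 week of promotion. The second came from terminal euthanasia, when promotion had lasted 6 weeks. Each of the 14 groups (7 conditions at 2 times) had 5 libraries, 70 in all. The protocol speaks of 5 livers per group, but the labels do not tie a library to an animal, so p-values measure the spread between these libraries.

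Keratins are the intermediate filament proteins of epithelia, and a filament is built from pairs of an acidic type I and a basic type II chain. Hepatocytes carry KRT8 with KRT18, and bile duct cells add KRT7 and KRT19. The other keratins belong to epidermis and other stratified epithelia, to the root sheath of the hair follicle or to the hair shaft, where keratin-associated proteins (Krtap genes) crosslink the filaments. Adult liver normally uses none of these hair genes. The type I and type II genes lie in separate clusters, and CpG methylation at a promoter is commonly associated with a silent gene. The signal counts methylated fragments and is not corrected for CpG content, so a level is not a percentage of methylation. In bulk liver DNA, fewer methylated cells and fewer methylated copies per cell cannot be told apart.

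The members comprised 3 regions of the named simple keratins (Krt8, Krt18 and Krt19), 2 of other simple-epithelial keratins (Krt20 and Krt23), 16 of stratified epithelia, 7 of the root sheath, 14 of the hair shaft, 7 of Krtap genes and 1 unclassed region, Krt1-5. The 44 regions of the 4 epidermal and hair classes are the comparison for Krt8, Krt18 and Krt19. No region here carried the symbol Krt7 or Krt5. In the files, 28 regions lie on chromosome 10, 16 on chromosome 7, 5 on chromosome 11 and 1 on chromosome 2. The region on chromosome 2 is that of Krt18 (chr2:80038696-80044321), whereas RefSeq places Krt18 on chromosome 7 between Krt8 and Eif4b. The Krt18 values below therefore belong to the place the files give and cannot be read as those of the Krt18 promoter. Krt83 has 2 regions (copies 1 and 2) under 1 transcript, which RefSeq calls Krt87. Copy 2 overlaps the region of Kb23. The regions of Krtap14 and Krtap15-1 share 5093 bases, so their values are not separate measurements.

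Promoter sequences from RefSeq (build GRCr8, 250 bases before to 50 after the start) were matched by symbol for 37 of the 49 keratin genes. The 6 shown span the range of signal and of CpG content: Krt8 and Krt18 as the hepatocyte pair, Krt26 and Krtap13-2 as the highest and lowest region means, Krt32 with the fewest CpG pairs, and Krt31 for a peak at its start. Capitals mark each CG, the pair that the capture protein binds when methylated. The windows are chr7:135010290-135010589 (minus strand, 10 CpG pairs), chr7:135035918-135036217 (plus strand, 17 CpG pairs), chr10:84786952-84787251 (minus strand, 9 CpG pairs), chr10:85483251-85483550 (minus strand, 3 CpG pairs), chr10:85520929-85521228 (minus strand, 1 CpG pairs) and chr11:41575647-41575946 (plus strand, 3 CpG pairs).
Krt8: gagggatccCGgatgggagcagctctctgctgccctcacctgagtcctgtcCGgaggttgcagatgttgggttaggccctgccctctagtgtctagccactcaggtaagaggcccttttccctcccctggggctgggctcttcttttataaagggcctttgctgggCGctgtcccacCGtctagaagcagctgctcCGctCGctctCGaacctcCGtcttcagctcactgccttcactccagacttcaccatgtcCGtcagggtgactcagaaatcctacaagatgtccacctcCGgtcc
Krt18: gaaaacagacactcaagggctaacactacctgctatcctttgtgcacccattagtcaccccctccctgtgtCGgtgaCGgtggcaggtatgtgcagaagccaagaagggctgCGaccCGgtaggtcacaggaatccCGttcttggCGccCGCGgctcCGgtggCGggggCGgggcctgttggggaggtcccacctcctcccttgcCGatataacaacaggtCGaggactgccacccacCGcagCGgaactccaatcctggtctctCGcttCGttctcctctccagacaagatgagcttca
Krt26: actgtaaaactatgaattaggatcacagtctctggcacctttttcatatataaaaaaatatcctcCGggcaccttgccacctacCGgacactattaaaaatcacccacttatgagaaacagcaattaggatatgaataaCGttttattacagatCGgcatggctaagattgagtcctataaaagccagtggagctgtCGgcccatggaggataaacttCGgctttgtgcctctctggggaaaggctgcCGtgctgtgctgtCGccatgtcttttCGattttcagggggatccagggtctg
Krt31: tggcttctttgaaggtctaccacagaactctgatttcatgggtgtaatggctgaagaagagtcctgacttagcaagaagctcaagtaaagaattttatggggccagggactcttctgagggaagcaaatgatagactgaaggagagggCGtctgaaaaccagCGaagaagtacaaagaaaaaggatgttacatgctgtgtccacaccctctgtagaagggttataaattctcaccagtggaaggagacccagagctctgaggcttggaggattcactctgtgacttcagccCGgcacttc
Krt32: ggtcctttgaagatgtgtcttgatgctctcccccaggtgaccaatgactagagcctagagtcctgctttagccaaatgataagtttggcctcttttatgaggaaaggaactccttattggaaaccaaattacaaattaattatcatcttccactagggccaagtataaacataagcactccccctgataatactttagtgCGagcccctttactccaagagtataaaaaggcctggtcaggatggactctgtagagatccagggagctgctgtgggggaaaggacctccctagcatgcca
Krtap13-2: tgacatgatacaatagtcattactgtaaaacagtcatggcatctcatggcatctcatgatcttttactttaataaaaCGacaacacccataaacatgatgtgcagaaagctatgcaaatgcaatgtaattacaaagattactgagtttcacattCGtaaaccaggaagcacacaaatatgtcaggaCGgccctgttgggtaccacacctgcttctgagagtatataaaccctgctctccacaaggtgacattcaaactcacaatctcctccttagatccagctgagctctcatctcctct

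Keratin promoters were mostly poor in CpG. Their CpG count in 300 bases ran from 1 (Krt32) to 17 (Krt18) with a median of 6, against a median of 7 over the 33469 promoters of the table. Of the 10241 genes with both a region here and a matched promoter, 3193 had fewer than 10 CpG pairs and 7048 had 10 or more. Fewer than 10 CpG pairs stood in 34 of 37 keratin promoters, against 58.5% of all promoters. The exceptions were Krt18 with 17, Krt4, a keratin of mucosal epithelium, with 11, and Krt8 with 10. Keratin genes with more CpG pairs in the promoter tended to have more signal. Over 36 keratin genes, leaving out Krt18 because of its place in the files, CpG count and log2 mean signal had a Pearson r of 0.59 and a Spearman rho of 0.57. Over 10241 genes with both values, rho was -0.03, and over the 3193 of them with fewer than 10 CpG pairs it was 0.38. These correlations run across genes that share libraries and neighbourhoods, so they are given as a description, and the 300-base window is a small part of the 5625 bp measured.

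**Figure D1:**
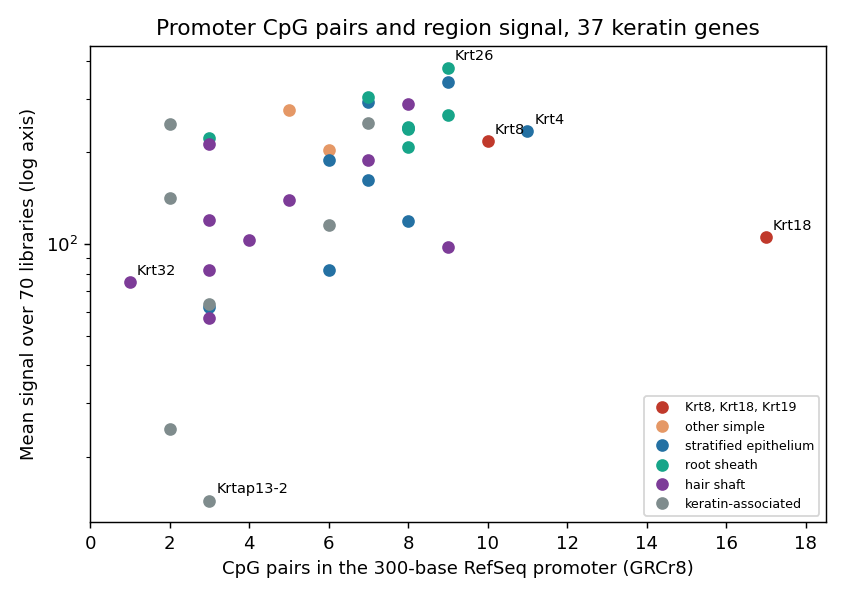
CpG pairs in the 300-base RefSeq promoter (horizontal) against the mean signal over 70 libraries (vertical, log axis) for 37 keratin genes, each a dot coloured by class. Krt18, with 17 CpG pairs, stands alone to the right, but its signal is that of the region on chromosome 2, whereas its RefSeq promoter lies on chromosome 7. The lowest signals, those of Krtap13-2 and Krtap31-1, go with 3 and 2 CpG pairs.

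Keratin regions carried more signal than most regions of the genome's gene starts. The mean over 70 libraries was above the median of all regions (53.5) for 47 of 50 keratin regions, and above their 90th percentile (188) for 26. The 3 below the median of all regions were Krtap13-2, Krtap31-1 and Krt83 copy 1, with 14.4, 24.8 and 42.7. The median keratin region stood at 189. All 50 passed the filter on low values, a signal of at least 10 in at least 5 libraries, at both times.

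The root sheath keratins were highest as a class, with a median of 242 over the 7 region means. All 7 were above the 90th percentile of all regions, from Krt75 of the companion layer (209 ± 37.3, SD over 70 libraries) to Krt26 (379 ± 77.6). The 16 stratified keratins had a median of 191, and 9 were above the 90th percentile. They ran from Krt77 of sweat gland ducts (62.2 ± 13.5) to Krt15 of basal keratinocytes (371 ± 82.9). Krt12, the keratin of corneal epithelium, was second among these at 340.1 ± 76.8. The epidermal pair of suprabasal cells, Krt1 and Krt10, had 193 ± 34.2 and 239.9 ± 50.0, while Krt14 of basal cells had 99 ± 19.9. The hair shaft class had a median of 129, from Krt83 copy 1 (42.7 ± 11.6) to Krt82 of the hair cuticle (288 ± 65.4). The Krtap class had a median of 115, from Krtap13-2 (14.4 ± 11.8) to Krtap15-1 (251 ± 45.6). Of the other simple keratins, Krt20 of intestinal epithelium had 204 ± 44 and Krt23 had 276 ± 46.2. The unclassed Krt1-5, which RefSeq calls Krt36, had 102 ± 16.2 and the smallest ratio of SD to mean among the members (0.16), where the median over tested regions was 0.26. Krtap13-2 had the largest ratio, 0.82.

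**Figure D2:**
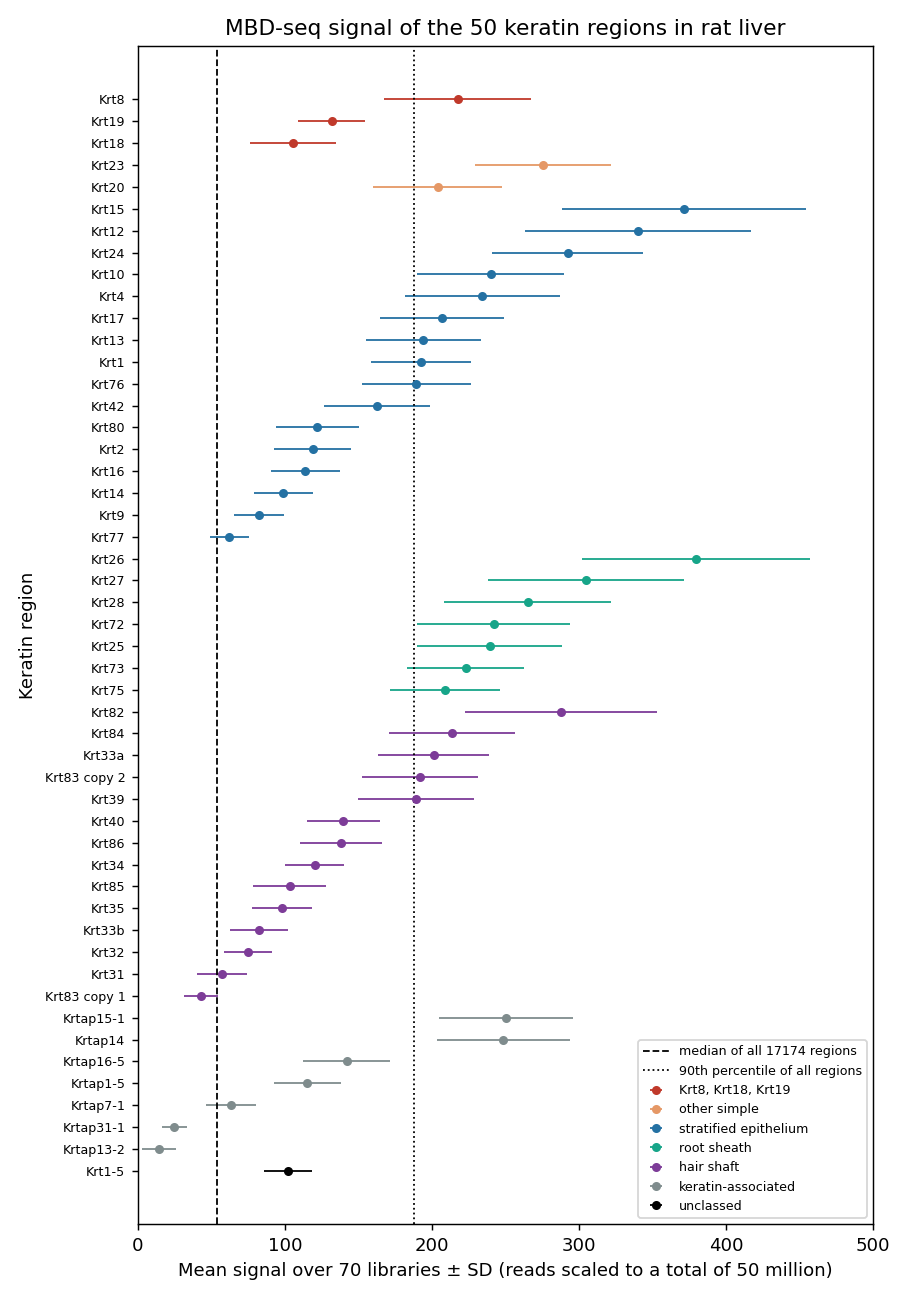
Mean signal ± SD over 70 libraries (horizontal) of each of the 50 keratin regions (vertical), coloured by class and ordered within it. Dashed and dotted lines are the median (53.5) and the 90th percentile (188) of all 17174 regions. All 7 root sheath regions lie beyond the dotted line, and Krt8 is the only 1 of the 3 named simple keratins to do so.

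Among the 3 regions named for keratins used by liver, Krt8 had the most signal (217 ± 50.1, chr7:140720074-140725699), at the 92.9th percentile of all regions. Krt19 had 132 ± 22.7 (chr10:89084545-89090170, 80.3rd percentile). The chromosome 2 region labelled Krt18, which cannot be read as the Krt18 promoter, had 106 ± 29.3 (73.3rd percentile). The same order held within most libraries: Krt8 was above Krt19 in 68 of 70 and above Krt18 in 70, and Krt19 was above Krt18 in 59. Krt8 was above the median of the 44 epidermal and hair regions in 66 of 70 libraries, Krt19 in 2 and Krt18 in 1. Of those 44 regions, 14 had a mean above that of Krt8, 27 above that of Krt19 and 32 above that of Krt18. Krt8, a gene that hepatocytes use, lay within the range of keratins of skin and hair, and so did Krt19. That range (14.4 to 379) covered percentiles 19.2 to 98.8 of all regions, so lying within it says little about a gene.

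Per library, the median log2(signal + 1) of Krt8, Krt18 and Krt19 minus that of the 44 epidermal and hair regions was -0.33 ± 0.23 (SD, n = 70 libraries). It was below 0 in 67 of 70 libraries, and -0.36 ± 0.21 over the 61 libraries that are not evenly covered, a split described below. Group means ran from -0.45 ± 0.17 (thioacetamide at partial hepatectomy, n = 5) to -0.19 ± 0.16 (DEN at 30 mg/kg at terminal euthanasia, n = 5), with ranges that overlapped. The negative value rests on Krt18 and on the choice of the median. Without Krt18 the difference was -0.02, and with means in place of medians it was -0.004. By gene, Krt8 stood 0.33 ± 0.21 above the epidermal and hair median, Krt19 stood at -0.37 ± 0.23 and Krt18 at -0.73 ± 0.33 (log2, n = 70 libraries). Members are not replicates and were chosen by name, so no test was made of this difference.

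Krt8 differed between groups by less than its spread within them. At partial hepatectomy the 5 libraries of the water control read 230.0, 245, 212, 159 and 125, and those of the phenobarbital control read 329, 211, 179, 218 and 245. At terminal euthanasia the water control read 208, 238, 185, 245 and 194 and the phenobarbital control 182, 234, 207, 225 and 108. The 2 controls overlapped at both times. Among initiator groups at partial hepatectomy, Krt8 was 216 ± 35.1 after DEN at 3 mg/kg and 212 ± 61.4 at 30 mg/kg, 235 ± 62.4 after thioacetamide, 214 ± 30.7 after methapyrilene and 211 ± 55.1 after acetaminophen (mean ± SD, n = 5, as below). At terminal euthanasia these were 239 ± 28.4, 226 ± 62.8, 218 ± 57.2, 189.6 ± 46.6 and 248 ± 76.8. The highest and the lowest group, acetaminophen (146 to 348) and methapyrilene (113 to 238) at terminal euthanasia, overlapped, so no 2 neighbours in the order of groups differed beyond their spread. Over the 7 contrasts, the log2 difference of Krt8 ran from -0.18 to 0.30 at partial hepatectomy and from -0.20 to 0.37 at terminal euthanasia.

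Krt19, the bile duct keratin, was steadier. In the phenobarbital control its 5 libraries read 149.6, 120.0, 129, 133 and 144 at partial hepatectomy and 136, 151, 105, 176 and 108 at terminal euthanasia. The water control had 125 ± 7.46 and 124 ± 21.7 at the 2 times. Its 14 group means spanned 121 (DEN at 30 mg/kg, partial hepatectomy) to 141 (the same dose, terminal euthanasia), a ratio of 1.17, the smallest among the 50 regions. Its log2 differences stayed between -0.17 and 0.12 over all contrasts. The region labelled Krt18 had group means from 90.01 (methapyrilene, terminal euthanasia) to 117 (thioacetamide, partial hepatectomy), with group SDs of 14.8 to 49.9 and log2 differences from -0.30 to 0.32. None of the 3 reached an unadjusted p of 0.05 in any treatment contrast. Between the times, Krt8 had 217 at partial hepatectomy and 218 at terminal euthanasia, Krt19 had 129.6 and 134, and Krt18 had 108 and 103.

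**Figure D3:**
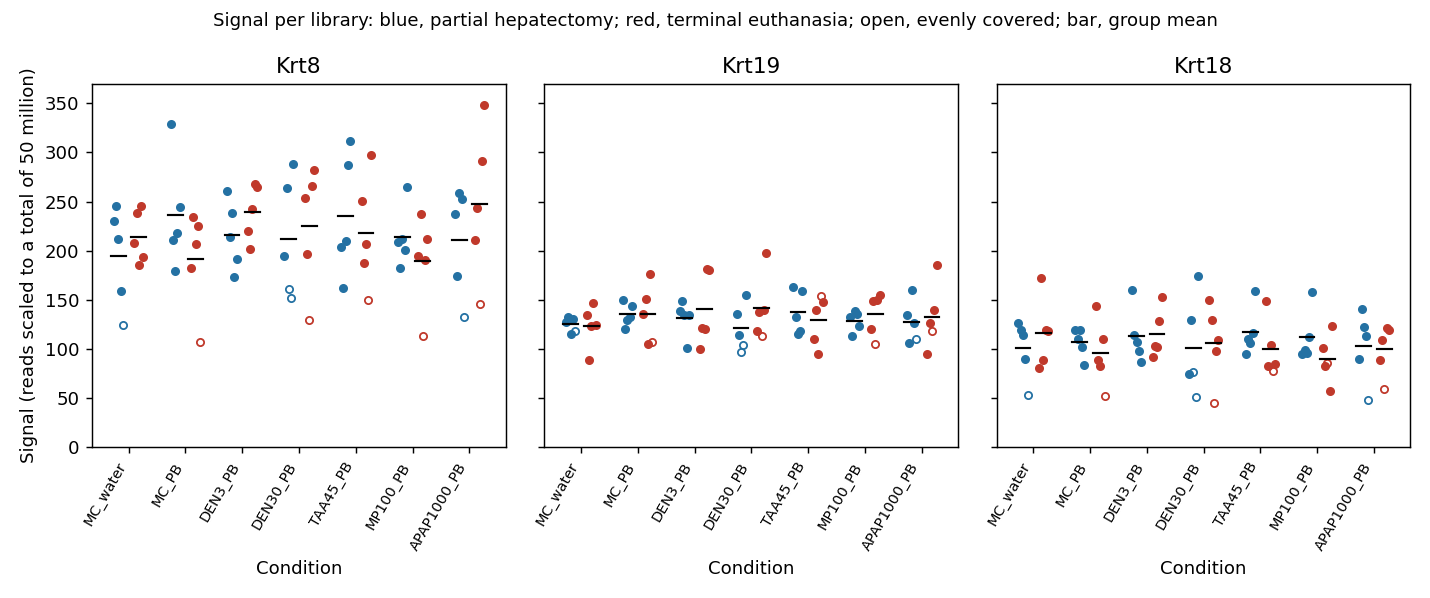
Signal of Krt8, Krt19 and Krt18 (vertical) in each of the 70 libraries, by condition (horizontal). Filled dots are single libraries at partial hepatectomy (blue) and terminal euthanasia (red), open dots are the 9 evenly covered libraries, and bars are group means. All groups of a gene overlap, and the open dots lie at the bottom of most Krt8 and Krt18 groups.

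In 9 libraries fewer than 1% of regions lacked a read (0.611% to 0.932%, against 1.60% to 5.39% in the other 61), so reads were spread more evenly. These evenly covered libraries fall in 8 of the 14 groups: 2 in DEN at 30 mg/kg at partial hepatectomy and 1 each in the water control and acetaminophen at that time and, at terminal euthanasia, in the phenobarbital control, DEN at 30 mg/kg, thioacetamide, methapyrilene and acetaminophen. Their library numbers in the labels are 41, 43, 44, 52, 53, 56, 57, 59 and 65, with none below 41. The labels do not say what the number stands for. It is spread unevenly over the conditions: the lowest is 27 for methapyrilene and 29 for acetaminophen, and the highest is 52 for the phenobarbital control. Keratin regions were lower in the evenly covered libraries. The median keratin signal of a library was 94.2 to 134 in these 9 and 140.4 to 239 in the other 61, with no overlap. The mean was lower in the evenly covered libraries for 43 of 50 keratin regions and for 53.1% of all regions. The median ratio of the 2 means was 0.708 over the keratin regions and 0.964 over all.

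The ratio was at most 0.722 in each of the 21 keratin regions with a mean above 200 and at least 0.77 in each of the 11 below 100. The 18 between these levels ran from 0.547, the lowest of all 50 (the region labelled Krt18), and 0.646 (Krt2) up to 0.932 (Krt85). Krt26 read 166 to 269 in the evenly covered libraries and 287 to 570 in the others. Krt15 read 166 to 249 and 281 to 575. Neither overlapped. Krt8 read 108 to 161 and 159 to 348, which overlap by little, and Krt19 read 96.9 to 154 and 88.7 to 198, which overlap widely. Krtap13-2 went the other way, with 27.8 to 50.9 in the evenly covered libraries and 0.01, the placeholder for no read, to 26.8 in the others. Below, each difference printed with its SE from groups that hold such libraries is also given without them.

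**Figure D4:**
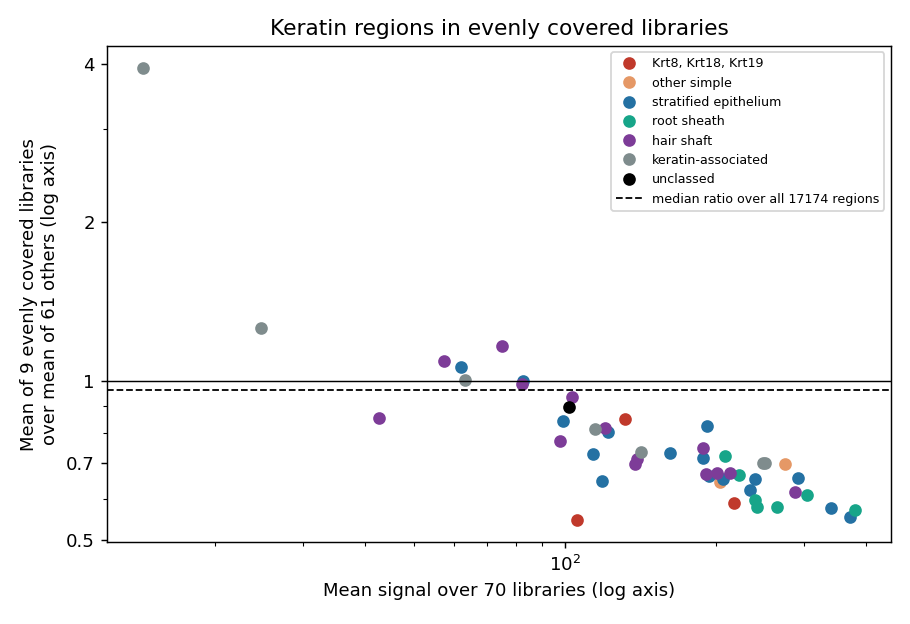
Mean signal of each keratin region in the 9 evenly covered libraries over its mean in the other 61 (vertical, log axis) against its mean over all 70 (horizontal, log axis), coloured by class. The ratio is 3.91 for Krtap13-2, at most 0.722 in the 21 regions above 200 and lowest, 0.547, for Krt18 at a middle signal, and the dashed line is the median of all regions, 0.964.

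No keratin region passed the test in any treatment contrast. With limma on log2(signal + 1) and Benjamini-Hochberg adjustment over all regions tested (15809 at partial hepatectomy, 16008 at terminal euthanasia), 0 of 50 passed an adjusted p of 0.05 in each of the 7 contrasts per time, where 0% of all regions did. edgeR and DESeq2 on the recovered reads also called 0 keratin regions in each contrast, against 0.000898% and 0.0018% of the tests of all regions. Over the 14 contrasts, 21 of the 700 keratin tests (3%) had an unadjusted p under 0.05, against 4.25% of the tests of all regions. The 5 libraries of 1 group lay wholly apart from those of the other in 1 of the 700. The share of such tests over all regions was not counted, so this is a description only. The standard error of a log2 difference was 0.16 to 0.58 (median 0.20), which sets what these groups can resolve. Contrasts at a time share the phenobarbital control.

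Phenobarbital alone was compared with water. At partial hepatectomy, 3 of 50 keratin regions had an unadjusted p under 0.05, against 6.28% of all regions, and all 3 were higher with phenobarbital. Krt39, a hair shaft keratin, was the member whose groups did not overlap. It read 213, 219, 191, 189 and 183 with phenobarbital and 174, 149.9, 134, 134 and 175 with water, a difference of 0.38 on the log2 scale (SE 0.19, limma adjusted p = 0.742, and 0.43 without the evenly covered libraries). Krtap16-5 had the smallest p in this direction, with 156 ± 29 against 114 ± 21.5 and a difference of 0.45 on the log2 scale (SE 0.18, limma adjusted p = 0.734, and 0.33 without the evenly covered libraries). The lowest of its water libraries, 79.98, was the evenly covered one. Krt31, a hair cortex keratin, had the smallest p in the other direction, at -0.42 on the log2 scale (SE 0.25, limma adjusted p = 0.742, and -0.46 without the evenly covered libraries). At terminal euthanasia, 0 of 50 keratin regions had an unadjusted p under 0.05, against 3.17% of all regions. Krt85, a keratin of hair matrix, had 0.22 on the log2 scale (SE 0.21, limma adjusted p = 0.9999, and 0.22 without the evenly covered libraries) and Krtap31-1 -0.62 on the log2 scale (SE 0.37, limma adjusted p = 0.9999, and -0.88 without the evenly covered libraries).

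DEN was compared with the phenobarbital control at each dose. After 3 mg/kg at partial hepatectomy, 0 of 50 keratin regions had an unadjusted p under 0.05, against 3.17% of all regions. The smallest p in each direction belonged to Krt31 (difference 0.36) and Krt33b (-0.39), a pair of hair cortex keratins. After 30 mg/kg, 2 of 50 keratin regions had an unadjusted p under 0.05, against 7.64% of all regions. Krt72 of the root sheath read 206, 196, 132, 172 and 317 after DEN and 320.2, 300.0, 232, 239 and 279 in the control, a difference of -0.47 on the log2 scale (SE 0.20, limma adjusted p = 0.612, and -0.22 without the evenly covered libraries). The values 132 and 172 in the treated group are the evenly covered libraries. Krt83 copy 1 stood at -0.50 on the log2 scale (SE 0.25, limma adjusted p = 0.653, and -0.37 without the evenly covered libraries). Krt9 of palm and sole epidermis had the smallest p among the higher regions, at 0.27 on the log2 scale (SE 0.17, limma adjusted p = 0.712, and 0.32 without the evenly covered libraries).

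At terminal euthanasia, DEN at 3 mg/kg gave the most keratin regions with a small p. Of 50, 7 had an unadjusted p under 0.05, against 8.51% of all regions, and all 7 were higher than in the phenobarbital control: Krt16, Krt17 and Krt80 of stratified epithelia, Krt26 and Krt27 of the root sheath, Krt84 of the hair shaft and Krt23. Each had a limma adjusted p of 0.579. Krt17, a keratin of hair follicle and wounded epidermis, read 219, 259, 304, 229 and 298 after DEN and 218, 163, 178, 231 and 113 in the control. Its difference was 0.56 on the log2 scale (SE 0.20, limma adjusted p = 0.579, and 0.41 without the evenly covered libraries), and quantile scaling gave 0.30. The evenly covered library there is the control that read 113. Krt80 read 93.7, 165, 184, 145 and 155 against 133, 80.8, 112, 89.9 and 85.8, a difference of 0.55 on the log2 scale (SE 0.20, limma adjusted p = 0.579, and 0.50 without the evenly covered libraries). The groups overlapped in both. Krtap13-2 had the smallest p among the lower regions, at -0.75 on the log2 scale (SE 0.58, limma adjusted p = 0.638, and -0.35 without the evenly covered libraries), and there the evenly covered control library was the highest.

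After DEN at 30 mg/kg at terminal euthanasia, 1 of 50 keratin regions had an unadjusted p under 0.05, against 3.41% of all regions. It was Krt80, with 139 ± 19.6 against 100.2 ± 21.7 and a difference of 0.48 on the log2 scale (SE 0.20, limma adjusted p = 0.999, and 0.51 without the evenly covered libraries). By limma, Krtap13-2 had the largest difference of any keratin region in any contrast, -1.07 on the log2 scale (SE 0.58, limma adjusted p = 0.999, and -1.42 without the evenly covered libraries). Its libraries read 0.01, 3.26, 50.9, 6.21 and 6.35 after DEN and 9.91, 7.13, 18.2, 5.76 and 41.2 in the control, with means of 13.3 and 16.5, and the highest of each group was evenly covered. The size of this difference depended on how low values were treated: it was -0.34 with edgeR (unadjusted p 0.601), -0.37 with a pseudocount of 10 and -0.40 without the library with no read. With edgeR the largest keratin difference was that of Krtap13-2 after DEN at 3 mg/kg at terminal euthanasia, -1.15. The doses were also set against each other. At partial hepatectomy, 2 of 50 keratin regions had an unadjusted p under 0.05, against 5.22% of all regions, and both were lower at 30 mg/kg: Krt83 copy 1 and Krt73 of the root sheath. Krt83 copy 1 stood at -0.54 on the log2 scale (SE 0.25, limma adjusted p = 0.921, and -0.41 without the evenly covered libraries), and Krt73 at -0.37. Krt9 had 0.31. At terminal euthanasia, 0 of 50 keratin regions had an unadjusted p under 0.05, against 3.01% of all regions. Krt83 copy 1 then stood at 0.31 and Krtap16-5 at -0.37.

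The 3 non-DEN initiators gave few small p-values. After thioacetamide, 0 of 50 keratin regions had an unadjusted p under 0.05 at either time, against 4.44% and 2.06% of all regions. The smallest p by direction belonged to Krtap7-1 (0.38) and Krt24 (-0.19) at partial hepatectomy and to Krt31 (0.52) and Krt86 (-0.29) at terminal euthanasia. After methapyrilene the count was 0 of 50 at partial hepatectomy, against 3.67%, where Krt31 had 0.31 (0.21 with edgeR) and Krt14 had -0.34. At terminal euthanasia it was 2 of 50, against 2.57%. Krt31 read 60.5, 63.1, 63.2, 60.8 and 98.2 after methapyrilene and 28.8, 39.2, 73, 34.6 and 54.9 in the control, a difference of 0.63 on the log2 scale (SE 0.26, limma adjusted p = 0.9996, and 0.73 without the evenly covered libraries). The control group was wide and held 1 library above 4 of the 5 treated ones. Krt32, another hair shaft keratin, had 0.42, and Krt13 of oesophagus epithelium had -0.16 as the smallest p among the lower regions.

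After acetaminophen the count was 3 of 50 at partial hepatectomy, against 3.68%, and 1 of 50 at terminal euthanasia, against 2.76%. At the first time Krt31 read 70.3, 62.8, 69.4, 41.8 and 83.4 against 25.3, 35.6, 61.5, 54.5 and 57.4 in the control, a difference of 0.51 on the log2 scale (SE 0.25, limma adjusted p = 0.991, and 0.42 without the evenly covered libraries). The evenly covered library there read 83.4. Krtap7-1 had 0.44, and 0.26 without that library. Krt42 had -0.39 on the log2 scale (SE 0.18, limma adjusted p = 0.991, and -0.25 without the evenly covered libraries). At the second time Krt80 had 0.41 on the log2 scale (SE 0.20, limma adjusted p = 0.999, and 0.32 without the evenly covered libraries) and Krt13 had -0.24. Krt31 had the smallest p among the higher regions in 5 of the 10 contrasts of an initiator with the phenobarbital control, and contrasts of 1 time share that control. Without replicate 1 of the control at partial hepatectomy, which read 25.3, its difference was 0.32 after acetaminophen, 0.16 after DEN at 3 mg/kg and 0.11 after methapyrilene at that time, and -0.22 for phenobarbital against water. Without replicate 5 of the treated group it was 0.15 after DEN at 3 mg/kg at partial hepatectomy and 0.32 after thioacetamide at terminal euthanasia. Blocks of library numbers moved 3 of its differences by over 1.5 times. These became 0.17 after methapyrilene at partial hepatectomy and, at terminal euthanasia, 0.325 after thioacetamide and 0.39 after methapyrilene.

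The keratin regions leaned to the same side in several contrasts, and the lean moved with the evenly covered libraries and with the scaling. With phenobarbital against water at partial hepatectomy, 40 of 50 keratin regions were higher (median difference 0.17, all tested regions 0.06 with 57.5% higher). Without the evenly covered libraries, of which the water group held 1, 31 of 50 were higher and the keratin median was 0.03, where all regions had 53.2% and 0.02. After DEN at 30 mg/kg at that time, with 2 such libraries among the treated, 9 of 50 keratin regions were higher (median difference -0.11, all tested regions 0.04 with 54.8% higher). Without them 31 of 50 were higher and the median was 0.10, where all regions had 63.9% and 0.08, so the keratin count turned and stood near that of all regions. After acetaminophen, with 1 among the treated, 9 of 50 keratin regions were higher (median difference -0.09, all tested regions -0.03 with 45.8% higher), and 22 of 50 were higher without it, against 44.1% of all regions. Quantile scaling of all libraries left 19 to 30 of 50 keratin regions higher over the 14 contrasts of both times, with medians of -0.03 to 0.03. Of all regions, 48.7% to 52.8% were then higher. Quantile scaling gave 22 of 50 (median -0.01) for phenobarbital against water at partial hepatectomy and 28 of 50 (0.01) for DEN at 30 mg/kg at that time. For DEN at 3 mg/kg at terminal euthanasia it gave 24 of 50 (-0.02). Of all regions, 51.2%, 49.4% and 51% were then higher in these 3 contrasts, so the 3 leans were largely lost under quantile scaling. Under edgeR the 3 leans kept their side, with 33, 8 and 36 of 50 higher in the same order. Of all regions, 47.8%, 52% and 47.6% were higher with edgeR. DESeq2 kept these sides too, with 32, 9 and 36 of 50 keratin regions higher.

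At terminal euthanasia 1 of the 5 phenobarbital control libraries was evenly covered, and in each of the 5 initiator contrasts more keratin regions were higher than lower in the treated group. Most of all tested regions were higher too, from 56.6% after thioacetamide to 70.2% after acetaminophen. Keratin counts ran from 31 of 50 to 45 of 50 in the same 2 contrasts. After DEN at 3 mg/kg, whose 5 libraries include no evenly covered one, 43 of 50 keratin regions were higher (median difference 0.21, all tested regions 0.09 with 60.1% higher). Without the control library, 38 of 50 were higher and the median was 0.09, where all regions had 59.4% and 0.06. For phenobarbital against water, 16 of 50 keratin regions were higher (median difference -0.11), where 50.0% of all tested regions were, and 25 of 50 were higher without it, against 57.4% of all. After acetaminophen, where both groups held 1, 45 of 50 keratin regions were higher (median difference 0.13, all tested regions 0.11 with 70.2% higher), and 45 were higher without both, against 70.1% of all. Library scaling mattered too: edgeR moved the median difference of all regions in this last contrast from 0.11 to -0.01, and 30 of 50 keratin regions were then higher, against 48.2% of all. After thioacetamide at partial hepatectomy, 35 of 50 keratin regions were higher with the deposited scaling, against 66.8% of all, and 20 of 50 with that of edgeR, against 49.7%. What part even coverage has in these directions was not tested beyond leaving those libraries out and rescaling. Library numbers were also unbalanced at terminal euthanasia. Replicate 5 of each initiator group has a number from 66 to 70, whereas that of the phenobarbital control is 52. The median signal of all regions was 64.01 to 70.602 in the libraries numbered 66 to 70. It was at most 56.593 in every other library at that time. What part library number has in these directions was not tested separately.

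**Figure D5:**
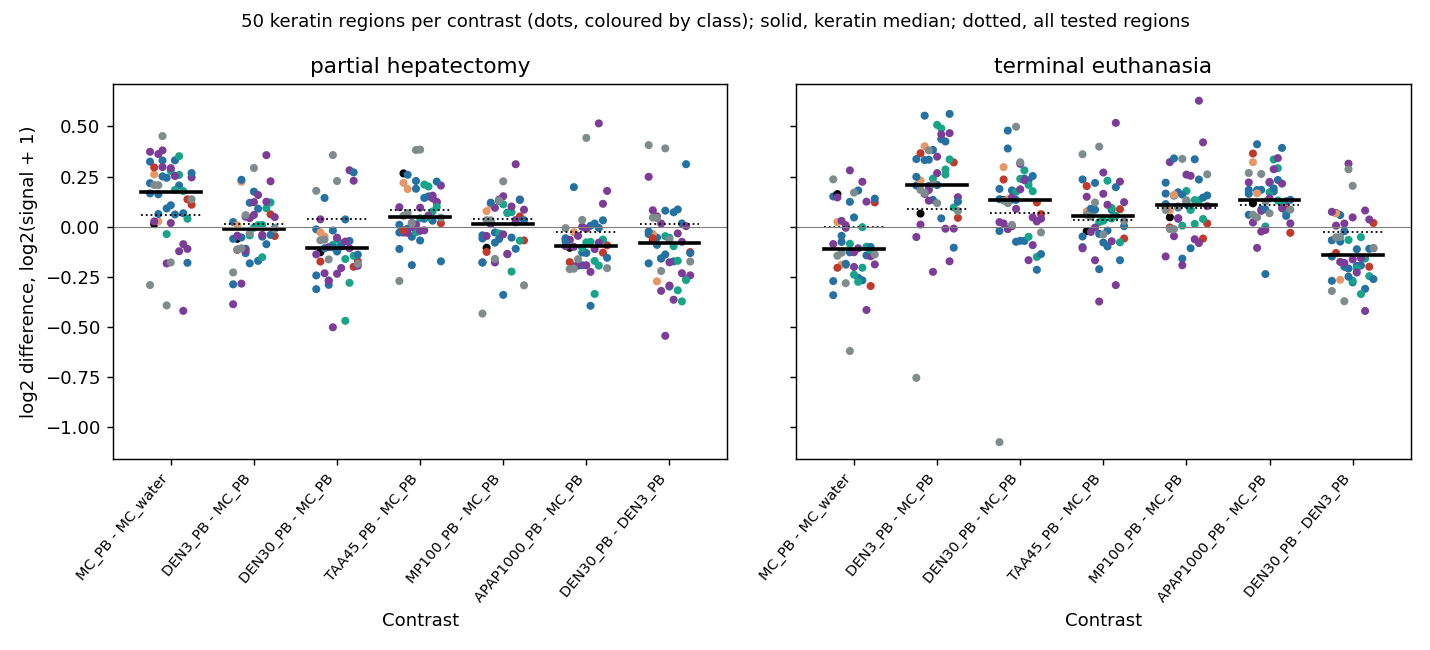
Difference of log2(signal + 1) (vertical) of each of the 50 keratin regions (dots, coloured by class) in 7 contrasts (horizontal) at partial hepatectomy and terminal euthanasia. Solid bars are the keratin medians and dotted bars the medians of all tested regions. The keratin median lies 0.17 above 0 for phenobarbital against water at partial hepatectomy and 0.21 above for DEN at 3 mg/kg at terminal euthanasia, and the lowest dot is Krtap13-2 at -1.07.

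An F test asked whether any of the 7 conditions differed. It called 0 keratin regions at partial hepatectomy, where it called 0.00633% of all regions, and 0 at terminal euthanasia, where it called 0%. An unadjusted p under 0.05 was reached by 0 and 1 of 50, against 4.16% and 2.55% of all regions. edgeR and DESeq2 called 0 in the same test at either time, where they called 0.019% and 0.0316% of all regions at partial hepatectomy and 0.0187% and 0.00625% at terminal euthanasia.

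Between the times, over the 7 conditions and all 70 libraries, limma called 0 keratin regions, against 0.0671% of all 16385 regions tested. By unadjusted p under 0.05 it was 1 of 50, against 6.59%. That region was Krt9, the keratin of palm and sole epidermis, with a mean of 75.6 at partial hepatectomy and 89.2 at terminal euthanasia and a difference of 0.22 on the log2 scale (SE 0.07, limma adjusted p = 0.324, and 0.22 without the evenly covered libraries). Leaving out single libraries gave adjusted p-values for Krt9 down to 0.111. The fit took the 70 libraries as independent, although all animals had the partial hepatectomy, so an animal may have given a library at both times. With the replicate number of a condition as a block, limma called 0 keratin regions and Krt9 had an adjusted p of 0.254. Higher at terminal euthanasia were 32 of 50 keratin regions, against 70.4% of all. It was 34 of 50 without the evenly covered libraries, against 73.8% of all, and 16 of 50 with edgeR, against 50.8%. edgeR and DESeq2 called 0 keratin regions between the times, against 0.104% and 0.11% of all regions, and each gave 3 of 50 an unadjusted p under 0.05, against 5.15% and 5.47%.

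Whether a treatment difference changed between the times was tested as an interaction in limma, added after the data were seen. It called 0 keratin regions and 0% of all regions in each of the 7 contrasts. By unadjusted p under 0.05, phenobarbital against water gave 1 of 50 keratin regions (all regions 6.63%), DEN at 3 mg/kg 1 (5.12%), DEN at 30 mg/kg 0 (6.7%), thioacetamide 0 (2.2%), methapyrilene 1 (1.81%), acetaminophen 1 (3.26%) and the dose comparison 1 (2.06%). The region in the first of these was Krtap16-5, whose phenobarbital difference was 0.73 lower on the log2 scale at terminal euthanasia than at partial hepatectomy, and in the second it was Krt17, whose difference was 0.65 higher.

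In the authors' deposited tables, which give a p per region for each group against the phenobarbital control, 0 to 4 of 50 keratin regions per comparison had p under 0.05, where 2.11% to 5.23% of all regions did. The 4 belonged to DEN at 3 mg/kg at terminal euthanasia, with Krt26 lowest among them in the authors' deposited table (0.00658). Over all comparisons, the smallest p of a keratin region in the authors' deposited tables was that of Krt39 for the water control at partial hepatectomy (0.0049), followed by Krtap1-5 for methapyrilene at that time (0.00643). These values are not adjusted.

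The authors' deposited peak list, which sets DEN at 30 mg/kg against phenobarbital at 5 and 11 weeks, holds 36231 peaks, of which 78.4% are higher with DEN at 5 weeks. A keratin symbol was carried by 11 peaks: 9 higher with DEN at 5 weeks, 1 lower at 5 weeks and 1 higher at 11 weeks. Of these, 9 carry the symbol of a region described here. Krt7, the bile duct partner of Krt19, appears only in this list. Its peak (chr7:140158226-140158497) lies at -2468 bases from the start and held 30 reads in the DEN set and 1 in the other, an enrichment factor of 28.4 in the authors' deposited list, whose median is 7.57. The Krt31 peak (chr10:88985907-88986147) lies at -95 bases, at the start whose RefSeq promoter is printed above, with 26 reads against 3 in the authors' deposited list. The Krtap31-1 peak lies at -429 bases with 20 reads against 1, and Krt39 has a pair of peaks, with 17 against 1 and 16 against 2. The peak lower with DEN belongs to Krt80, in an intron, with 20 reads in the phenobarbital set and 3 in the DEN set. The 11-week peak lies in Krt10. No peak of the authors' deposited list carries Krt8, Krt18 or Krt19.

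A peak higher with DEN at 5 weeks overlapped 6 of the 50 keratin regions (Krt28, Krt31, Krt34, Krt35, Krt39 and Krtap31-1), against 5.3% of all regions. In the region values at partial hepatectomy, limma gave 0 of these 6 an unadjusted p under 0.05 between DEN at 30 mg/kg and the phenobarbital control. Whether libraries were pooled for the peaks is not stated in the labels or headers, and 2 of those 5 DEN libraries are evenly covered.

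Genes that work with keratins were read from lists chosen by name. Desmosome and plakin genes, which anchor keratin filaments to cell junctions, had a median signal of 125 over 22 regions, from Pkp2 (9.83) to Pkp1 (316). Other intermediate filament genes had 98 over 13 regions, from Nefm (8.26) to Des (216). Regulators of keratin genes had 64 over 17 regions, from Msx2 (9.31) to Klf5 (171), and the 5 cornified envelope regions had 35, from Ivl (16.6) to Tgm3 (137). The keratin median of 189 was above each of these. In the 14 treatment contrasts, limma called 0 regions of every list. By unadjusted p under 0.05, the desmosome list had 4 higher and 1 lower of 308 tests, the other filaments 5 and 5 of 182, the regulators 7 and 0 of 238, and the cornified envelope list 4 and 1 of 70. These are shares of 1.62%, 5.49%, 2.94% and 7.14%, beside 4.25% over the tests of all regions, and the 5 of the cornified envelope list came from 2 genes. Markers of liver and other cells had medians of 52.4 for 9 hepatocyte regions, 81.8 for 10 bile duct regions, 31.6 for 3 mesothelial and 78 for 9 skin regions, where the bile duct list includes Krt19 and the skin list Krt14. Limma called 0 of these too, with 8 higher and 1 lower of 126 hepatocyte tests, 5 and 2 of 42 mesothelial tests and 0 and 0 of 126 skin tests at an unadjusted p under 0.05. The shares are 7.14%, 16.7% and 0%, beside the same 4.25%. All 7 mesothelial tests with such a p were of 1 gene, Wt1, in contrasts that share controls, a gene named after its values were seen. Some genes have more than 1 region: the 22 desmosome regions come from 12 genes and the 17 regulator regions from 12. The 10 bile duct regions come from 9 genes and the 9 skin regions from 4, so tests within these lists repeat genes. Methylation capture does not measure expression, so the labelled tissue could not be checked against these markers.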

How the data were processed

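MBD-seq (MethylMiner capture, SOLiD 4, reads of 50 bases, per the labels' protocols) was run on liver DNA of 70 libraries in 14 groups of 5. The deposited signal of a region is its reads times 50 M over a scaling total per library, with 0.01 where no read was found. Every value above that placeholder gave a whole number of reads within 0.01. Not given in the sources used here: the aligner, the genome build and what the scaling total counts. Scaling totals were 42.1 to 56.6 M, and regions held 0.933 to 1.80 M reads, with a median of 41 to 69 per region. Per the file headers, the deposited tables also hold a p-value per region, and the deposited peak list holds a peak's read count in the higher and in the lower of its 2 sets. It also holds an enrichment factor, a fold ratio by the authors.

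Tested regions had a signal of 10 or more in 5 or more libraries. With limma 3.58.1 (R 4.3.3), a mean for each group was fitted to log2(signal + 1) with a trend in the variance, at each time over 35 libraries and between the times over 70. Contrasts, the F test and Benjamini-Hochberg adjustment covered all tested regions with a threshold of 0.05, and the fit was tested on simulated data. edgeR 4.0.16 and DESeq2 1.42.0 on recovered reads were alternatives. Levels are compared between regions of equal length. The keratin classes and lists were chosen with earlier results of these data known. Named were Krt8, Krt18, Krt19 and Krt7, in each contrast the keratin region with the smallest unadjusted p in each direction, the highest and lowest region of each class, and those with the largest and smallest ratio of SD to mean. Krt39, Krt35 and other regions with an unadjusted p under 0.05, and those with a peak, were named after their values were seen. Alternatives left out libraries, changed the pseudocount to 10, the filter, the scaling or the blocks.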

Additional observations from a re-analysis of the deposited data

Results flagged for a closer look

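Of 101 groups of 5 values of the named regions, 8 had 1 library far from the other 4, where chance flags about 1 in 20 groups. In Krt18, replicate 5 of methapyrilene at partial hepatectomy read 158 and the nearest other 112. In Krt9, replicate 2 of DEN at 3 mg/kg at partial hepatectomy read 77.1 (nearest 66.8). In Krt83 copy 1, replicate 1 of DEN at 30 mg/kg at partial hepatectomy read 40.2 (nearest 28.4). In Krt31, replicate 5 of methapyrilene at terminal euthanasia read 98.2 (nearest 63.2). In Krtap13-2, replicate 3 of the phenobarbital control at partial hepatectomy read 22.3 (nearest 12.2).

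The other 3 were also in Krtap13-2, and each was an evenly covered library. Replicate 5 of the water control at partial hepatectomy read 43.5 (nearest 12), replicate 5 of acetaminophen at that time read 41.7 (nearest 9.64), and replicate 3 of DEN at 30 mg/kg at terminal euthanasia read 50.9 (nearest 6.35).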

How the results depend on the processing

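The count of keratin regions past the threshold was 0 in the 17 comparisons and stayed 0 in all 779 values under an alternative, with limma, edgeR and DESeq2. The smallest adjusted p of a keratin region in a contrast was 0.111, for Krt9 between the times without replicate 1 of DEN at 3 mg/kg at terminal euthanasia. The 28 named differences kept their sign in all 448 values under an alternative. Of these values, 45 moved by over 1.5 times, 30 of them by leaving out 1 library, and they concerned 18 of the 28 differences. The labels do not say that same-numbered libraries of a condition at the 2 times share an animal, and 11 of 35 correlations of their deviations were above 0.1 (-0.38 to 0.68), so they were not treated as pairs. Yet 21 of 35 libraries correlated best with their own number among 5, a hint from the data and not the design, so whether they pair is not known. With the replicate number as a block, 0 keratin regions were called, 14 of all regions passed between the times (11 without it), and Krt9 had an adjusted p of 0.254. The difference of Krt8, Krt18 and Krt19 from the epidermal and hair keratins (-0.33) was -0.004 with means in place of medians and -0.022 without Krt18, an alternative chosen after seeing the data. Leaving out 1 library at a time gave -0.336 to -0.318, and the other settings gave -0.41 to -0.28. No keratin regions shared coordinates and all passed the filter, so those settings changed nothing. Of the 9 peaks with a member's symbol, 5 were above the median enrichment factor. Regions of few reads, such as Krtap13-2 with a median of 10, limit what can be resolved, and intervals cover the spread between libraries.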
